A study of Mus musculus with 12 samples.

Results

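The genes of the amino acid response centred on ATF4 were followed: the transcription factor ATF4 and genes it acts on, the enzymes that make serine and pass on its carbon, enzymes that make other amino acids, and amino acid carriers of the cell surface. The list names 33 genes by symbol, and all 33 occurred in the count files, among 23420 genes listed. By role, 8 belonged to the ATF4 pathway, 8 to the serine and folate enzymes, 7 to amino acid synthesis and 10 to transport. The measurements came from mouse splenic naive CD8 T cells in 4 groups of 3 libraries: untreated wild type, untreated Otub1 knockout, wild type cultured for 24 h on anti-CD3 with anti-CD28, and Otub1 knockout cultured likewise. Otub1 encodes a deubiquitinase. All mice were C57BL/6, 6 to 8 weeks old and, in both genotypes, carried OT-I, a transgenic T cell receptor for an ovalbumin peptide. The knockout, labelled OTUB1-DKO and OTUB1-CD4Cre-OT-I, rests on CD4-Cre, which acts from the CD4-positive stage of developing T cells. The labels do not say whether the 3 libraries of a group came from separate mice. Y-linked reads, found in a single library of each of 3 groups, show that those groups mix male and female mice, and in stimulated wild type the spread among libraries may be technical. Both antibodies were used at 1 µg/ml, with anti-CD3 bound to the plate. Untreated cells, called fresh here, are not described as cultured, so that stimulation and culture form 1 factor.

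ATF4 is a basic leucine zipper factor whose messenger RNA is translated best when the initiation factor eIF2 is phosphorylated, as happens when amino acids run short or the endoplasmic reticulum is stressed. It pairs with C/EBP proteins on composite DNA elements and switches on genes for amino acid synthesis, amino acid import and transfer RNA charging. Serine made from a glycolytic intermediate, or taken up, gives glycine and a carbon unit that folate carries to purine and thymidylate synthesis. T cells that leave quiescence grow and divide, and are known to depend on imported leucine, glutamine and serine. The level of a messenger RNA does not show how much ATF4 protein was made.

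Depth was 15064488 to 25920035 gene counts per library. Otub1 was at 62.8 ± 15.4 CPM (counts per 1000000 gene counts after TMM scaling, mean ± SD, n = 3) in fresh wild type and 27.6 ± 1.91 in fresh knockout, and at 94.0 ± 7.48 and 14.8 ± 1.26 after stimulation, lower in each knockout library than in any wild-type library of the same treatment. The cell type tag of the samples names dendritic cells, against CD8 T cells in the design text, and all 7 CD8 T cell markers examined were detected. They summed to 5150 to 5381 CPM in fresh wild type and 1955 to 2080 in stimulated wild type, and the 12 dendritic cell markers to 763 to 960.1 and 77.7 to 87.0 CPM. Of these, Clec10a was at 0 in each stimulated wild-type library. The 6 B cell markers summed to 129 to 155 CPM in fresh and 27.0 to 32.8 CPM in stimulated wild type, and the 7 myeloid markers to 37.1 to 58.7 and 0.482 to 1.16 CPM. These shifts went with stimulation, and their part in the stimulation results was not tested. In bulk RNA, fewer cells of a type and less RNA per cell cannot be told apart. A library counts as carrying Y-linked reads with at least 50 such counts, and 3 did, 1 each in fresh wild type, fresh knockout and stimulated knockout.

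The first question was how stimulation changed the genes of this response. The genes tested rose, in wild type and in knockout, from a fresh state in which Atf4 and several carriers were already well expressed while Asns, Cth, Chac1, Slc6a9 and Slc7a11 were close to absent. In wild type the levels of the 33 genes summed to 2118 to 2178 CPM in fresh and 9137 to 10042 CPM in stimulated libraries, and in knockout to 2047 to 2122 and 9632 to 9803 CPM. Of the 33, 32 passed the filter on low counts, and each of those rose in both genotypes (edgeR adjusted p under 0.05), with groups that did not overlap. Across all 12759 genes tested, 40.8% rose and 41.4% fell in wild type, and 41.7% rose and 42.2% fell in knockout. Every stimulated library lay above every fresh one for 41.8% of genes in wild type and 42.0% in knockout. Chac1, Nupr1, Cth, Pycr1, Slc7a11 and Slc6a9 passed the filter through the stimulated groups alone and so had to differ. The other 26 also passed it in the fresh libraries by themselves, and 26 of these 26 rose in wild type, with a median log2 fold change of 2.54. Of the 12257 genes that pass in the fresh libraries, 39.7% rose, with a median of −0.07. In knockout the same 26 rose, with a median of 2.56, against 40.3% of those genes. A rise of at least 4-fold was seen in 19 of the 26 and in 4.63% of those 12257. Levels are shares of the RNA in a library, so that a rise says nothing of the total RNA per cell.

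**Figure D1:**
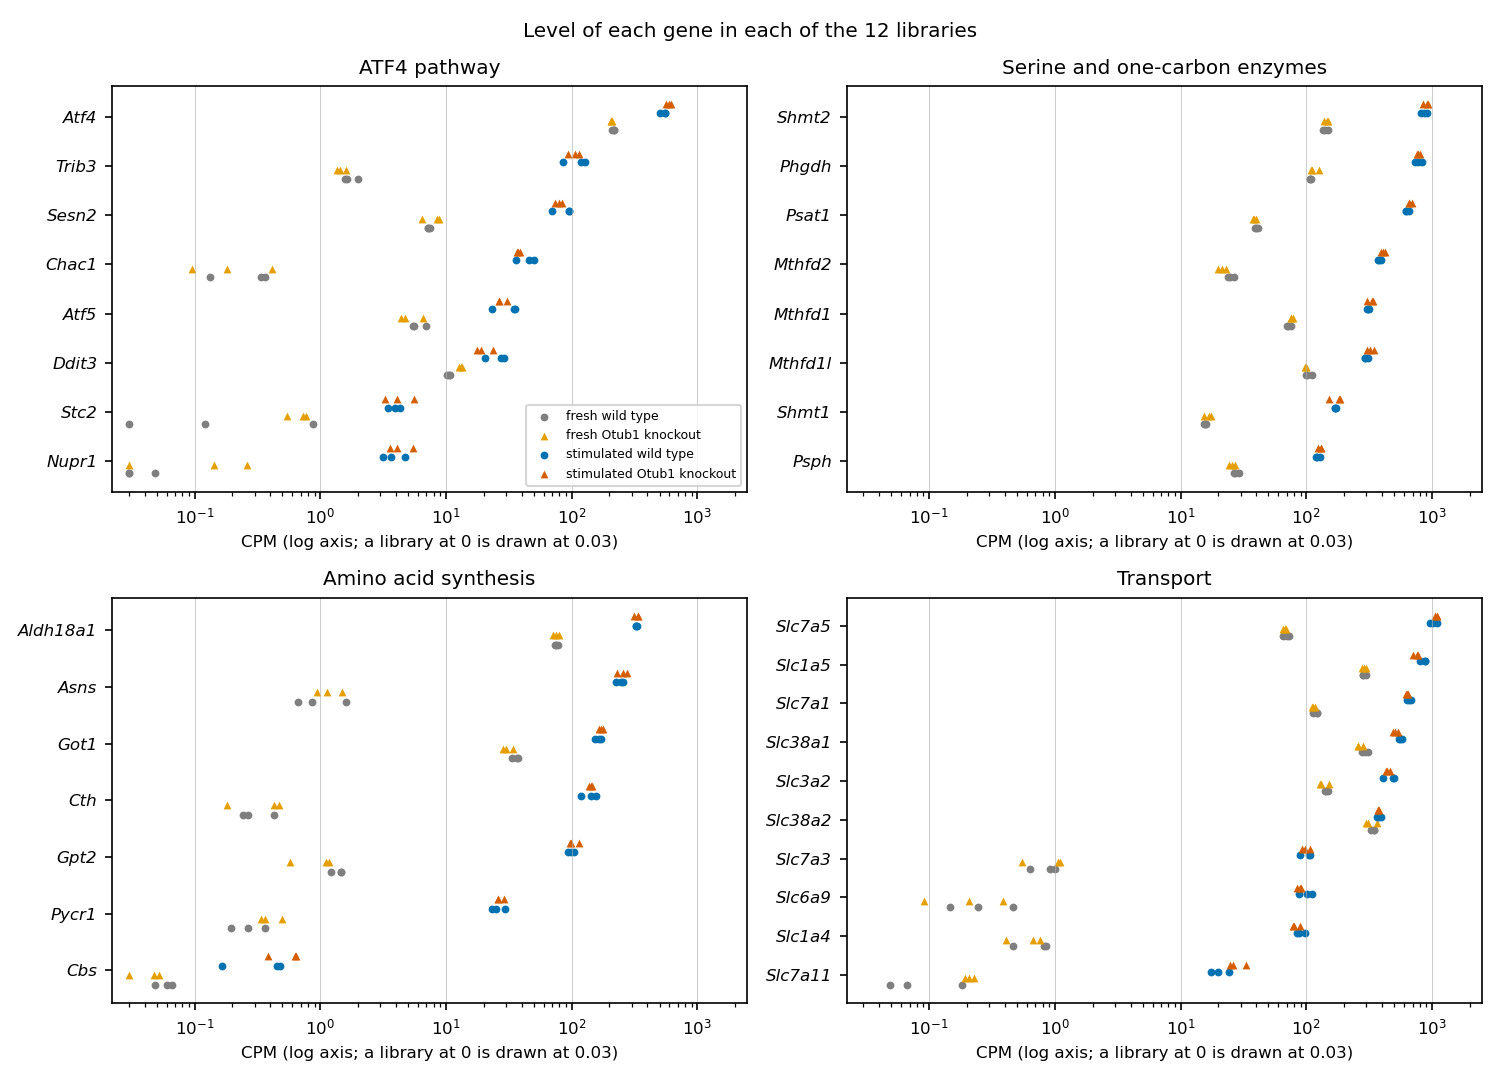
Level of each of the 33 genes in each of the 12 libraries, as CPM on a log axis, in 4 panels by role; each point is 1 library, and colours and shapes mark the 4 groups. In wild type Atf4 went from near 214 to near 538 CPM, while Asns, Cth, Slc6a9 and Slc7a11 started at means of at most 1.04 CPM.

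Of the ATF4 pathway, Atf4 itself (chromosome 15, 80255184 to 80257541, GRCm38) was at 217, 208 and 217 CPM in fresh wild type, 207, 207 and 208 in fresh knockout, 505, 553 and 554 in stimulated wild type and 563, 614 and 592 in stimulated knockout. The stimulated libraries lay above all fresh ones, with little spread within a group, and the log2 fold change was 1.33 (SE 0.048, edgeR adjusted p = 5.96e-13) in wild type and 1.51 (SE 0.048, edgeR adjusted p = 1.19e-13) in knockout. Ddit3, which encodes CHOP, a factor of cell death under lasting stress, was at 10.7, 10.6 and 10.1 CPM in fresh wild type, 12.8, 13.5 and 13.3 in fresh knockout, 20.5, 27.4 and 28.9 in stimulated wild type and 17.8, 23.8 and 19.0 in stimulated knockout. Fresh and stimulated libraries did not overlap in either genotype, and the rise was the smallest of the pathway, 1.29 (SE 0.13, edgeR adjusted p = 1.58e-07) in wild type and 0.61 (SE 0.13, edgeR adjusted p = 0.000342) in knockout on the log2 scale. Chac1, a known target of ATF4 that degrades glutathione, was at 0.364, 0.339 and 0.133 CPM in fresh wild type, 0.416, 0.181 and 0.0959 in fresh knockout, 35.8, 50.1 and 45.6 in stimulated wild type and 36.5, 37.6 and 38.6 in stimulated knockout. It went from a trace to an abundant message, with log2 fold changes of 7.22 (SE 0.23, edgeR adjusted p = 1.36e-13) and 7.34 (SE 0.23, edgeR adjusted p = 1.04e-13). Because Chac1 passed the filter through the stimulated groups alone, these p-values add no evidence of a rise.

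Nupr1, a small nuclear stress protein, was at 0, 0.0484 and 0 CPM in fresh wild type, 0.260, 0 and 0.144 in fresh knockout, 3.16, 4.72 and 3.66 in stimulated wild type and 4.10, 5.44 and 3.61 in stimulated knockout. With 1 count in the 3 fresh wild-type libraries together and 249 in the stimulated ones, the ratio was 200, with a 95% exact interval from 35.6 to 7950 that covers counting error only. Trib3, a pseudokinase that restrains ATF4 in feedback, rose from 1.74 ± 0.225 to 111 ± 21.7 CPM in wild type and from 1.47 ± 0.129 to 105 ± 9.87 CPM in knockout. Sesn2, a leucine sensor that holds back mTORC1, rose from 7.30 ± 0.136 to 86.7 ± 14.6 and from 7.92 ± 1.29 to 79.3 ± 5.02 CPM. Atf5, a relative of ATF4, rose from 5.99 ± 0.813 to 31.2 ± 7.02 and from 5.22 ± 1.16 to 27.8 ± 2.59 CPM. Stc2, a secreted glycoprotein, stayed among the lowest of the group at 3.90 ± 0.439 and 4.30 ± 1.19 CPM after stimulation. Its fresh level, 0.122, 0.872 and 0 CPM in wild type and 0.727, 0.543 and 0.767 in knockout, rested in wild type on replicate 2, and the log2 fold change of 3.35 in wild type was 5.82 without that library. Within the pathway the messenger of the factor thus changed 2.51-fold in wild type, by the ratio of group means, and that of Trib3 63.6-fold.

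Serine synthesis runs through Phgdh, Psat1 and Psph, and all rose. Psat1, the aminotransferase of the second step, was at 40.0, 41.1 and 39.0 CPM in fresh wild type, 39.7, 37.7 and 38.1 in fresh knockout, 622, 655 and 624 in stimulated wild type and 662, 691 and 656 in stimulated knockout. Replicates differed by a few percent against a 15.8-fold rise of the wild-type mean, and the log2 fold change was 3.98 (SE 0.049, edgeR adjusted p = 1.8e-17) in wild type and 4.12 (SE 0.049, edgeR adjusted p = 7.24e-18) in knockout. Phgdh, which draws phosphoglycerate from glycolysis, rose from 108 ± 0.732 to 775 ± 50.1 CPM in wild type and from 115 ± 9.16 to 777 ± 20.9 in knockout, and Psph, the phosphatase of the last step, from 27.5 ± 1.28 to 123 ± 4.57 and from 25.7 ± 1.27 to 128 ± 4.65 CPM. The enzymes that pass the carbon of serine to folate rose as well. Shmt2, the mitochondrial hydroxymethyltransferase, went from 142 ± 6.93 to 865 ± 45.2 CPM in wild type, and Shmt1, its cytosolic form, from 15.7 ± 0.223 to 171 ± 1.77 CPM. On the log2 scale the rise of Shmt1 was 3.44 (SE 0.076) and that of Shmt2 2.61 (SE 0.06).

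Further along the folate route, Mthfd2, the mitochondrial dehydrogenase and cyclohydrolase, was at 24.9, 26.8 and 23.7 CPM in fresh wild type, 19.7, 21.3 and 23.0 in fresh knockout, 375, 389.8 and 380.1 in stimulated wild type and 391, 421 and 405 in stimulated knockout. Its log2 fold change was 3.92 (SE 0.061, edgeR adjusted p = 1.95e-16) in wild type and 4.25 (SE 0.061, edgeR adjusted p = 6.81e-17) in knockout. Mthfd1l, which releases formate in the mitochondrion, was at 100.3, 111 and 101 CPM in fresh wild type, 98.8, 99.1 and 97.7 in fresh knockout, 291, 309.6 and 292 in stimulated wild type and 324, 344 and 305 in stimulated knockout. Mthfd1, which takes up formate in the cytosol, was at 71.8, 75.2 and 70.8 CPM in fresh wild type, 75.5, 75.0 and 78.7 in fresh knockout, 307, 311 and 313 in stimulated wild type and 336, 302 and 336 in stimulated knockout. These 2 had the smallest rises among the serine and folate enzymes in wild type, 1.52 (SE 0.053, edgeR adjusted p = 4.21e-13) and 2.09 (SE 0.05, edgeR adjusted p = 6.13e-15) on the log2 scale, and still no fresh library reached a stimulated one.

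Among the enzymes of amino acid synthesis, those for asparagine and cysteine went from a trace to abundant messages. Asns, which makes asparagine, was at 0.668, 1.60 and 0.866 CPM in fresh wild type, 0.935, 1.13 and 1.49 in fresh knockout, 225, 258 and 248 in stimulated wild type and 254, 275 and 231 in stimulated knockout. Cth, which makes cysteine from cystathionine, was at 0.425, 0.242 and 0.266 CPM in fresh wild type, 0.468, 0.181 and 0.432 in fresh knockout, 118, 158 and 142 in stimulated wild type and 138, 143 and 145 in stimulated knockout. Both were near absent in each fresh library and abundant in each stimulated one, with log2 fold changes in wild type of 7.80 (SE 0.15, edgeR adjusted p = 7.76e-16) and 8.80 (SE 0.18, edgeR adjusted p = 1.48e-15). In knockout they were 7.73 (SE 0.14) and 8.62 (SE 0.17). Cth passed the filter through the stimulated groups alone, so its adjusted p adds no evidence of a rise. Cbs, the enzyme before Cth in that route, lay under the filter and was not tested: it had 3 counts in fresh and 23 in stimulated wild type, a ratio of 6.17 (95% exact interval 1.86 to 32.1), and 2 and 37 in knockout. The enzymes of proline synthesis started from different levels. Aldh18a1, its first enzyme, was well expressed in fresh cells, at 75.0, 77.9 and 73.2 CPM in fresh wild type, 70.8, 75.4 and 79.5 in fresh knockout, 325, 331 and 325 in stimulated wild type and 337, 312 and 337 in stimulated knockout, and rose by 2.12 (SE 0.051, edgeR adjusted p = 6.84e-15) in wild type on the log2 scale. Pycr1, the last enzyme of that route, went from 0.275 ± 0.0856 to 25.9 ± 3.28 CPM, or 6.56 (SE 0.19, edgeR adjusted p = 4.52e-14). Like Cth, it passed the filter through the stimulated groups alone. Of the transaminases, Got1, cytosolic and paired with aspartate, was at 33.5, 36.9 and 37.2 CPM in fresh wild type, 33.9, 30.3 and 28.2 in fresh knockout, 152, 171 and 166 in stimulated wild type and 169.7, 165 and 179 in stimulated knockout, a rise of 2.18 (SE 0.068, edgeR adjusted p = 9.89e-14) in wild type. Gpt2, mitochondrial and paired with alanine, went from 1.38 ± 0.141 to 98.7 ± 4.74 CPM, or 6.15 (SE 0.13, edgeR adjusted p = 2.66e-15).

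The carriers ranged from traces to high levels in fresh cells. Slc6a9, a glycine transporter, was at 0.243, 0.145 and 0.466 CPM in fresh wild type, 0.208, 0.0905 and 0.384 in fresh knockout, 87.1, 111 and 102 in stimulated wild type and 90.1, 84.6 and 89.9 in stimulated knockout. Slc7a11, the exchanger that brings in cystine for glutamate (chromosome 3, 49892526 to 50443614, GRCm38), was at 0.182, 0.0484 and 0.0666 CPM in fresh wild type, 0.208, 0.226 and 0.192 in fresh knockout, 24.2, 19.8 and 17.4 in stimulated wild type and 25.9, 33.01 and 24.5 in stimulated knockout. Both were traces in fresh cells, with log2 fold changes in wild type of 8.51 (SE 0.20, edgeR adjusted p = 5.18e-15) and 7.65 (SE 0.29, edgeR adjusted p = 8.91e-13). As both passed the filter through the stimulated groups alone, these p-values add no evidence of a rise. Slc7a3, a carrier of cationic amino acids, went from 0.847 ± 0.193 to 100.2 ± 9.72 CPM, and Slc1a4, a carrier of alanine, serine and cysteine, from 0.713 ± 0.215 to 89.9 ± 6.50 CPM. Slc7a5, the leucine carrier LAT1, went from 69.3 ± 3.39 to 1028 ± 74.4 CPM in wild type and from 67.1 ± 2.13 to 1085 ± 21.7 CPM in knockout. Its partner chain Slc3a2, known as CD98, went from 145 ± 4.47 to 463 ± 49.3 CPM in wild type, so that in wild type the log2 fold change of the carrier was 3.89 (SE 0.063) and that of the partner 1.68 (SE 0.075). Slc7a1, which carries arginine and lysine, went from 119 ± 4.60 to 656 ± 27.4 CPM.

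Carriers of glutamine and other neutral amino acids were high before stimulation. Slc1a5, the glutamine carrier ASCT2 (chromosome 7, 16781340 to 16798274, GRCm38), was at 282, 296 and 282 CPM in fresh wild type, 286, 276 and 298 in fresh knockout, 804, 874 and 874 in stimulated wild type and 763, 709.5 and 771 in stimulated knockout, a rise of 1.57 (SE 0.053, edgeR adjusted p = 2.71e-13) in wild type on the log2 scale. Slc38a1 was at 277, 310.1 and 295 CPM in fresh wild type, 257, 284 and 256 in fresh knockout, 549.5, 553 and 582 in stimulated wild type and 538, 491 and 504 in stimulated knockout, a rise of 0.93 (SE 0.056, edgeR adjusted p = 2.77e-10) in wild type. Slc38a2 was at 348, 325 and 346 CPM in fresh wild type, 311, 368 and 296 in fresh knockout, 391, 376 and 368 in stimulated wild type and 374, 374 and 379 in stimulated knockout. Its rise was the smallest of the 32 genes tested, 0.16 (SE 0.065, edgeR adjusted p = 0.0356) in wild type and 0.21 (SE 0.065, edgeR adjusted p = 0.0075) in knockout. The wild-type call of Slc38a2 was lost without fresh wild-type replicate 2, stimulated wild-type replicate 1 or stimulated wild-type replicate 2 (edgeR adjusted p = 0.123, 0.0912 and 0.0548; range over the alternatives 0.00872 to 0.123). In stimulated wild type the carriers thus ran from 20.5 CPM for Slc7a11 to 1028 CPM for Slc7a5, without allowance for gene length.

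**Figure D2:**
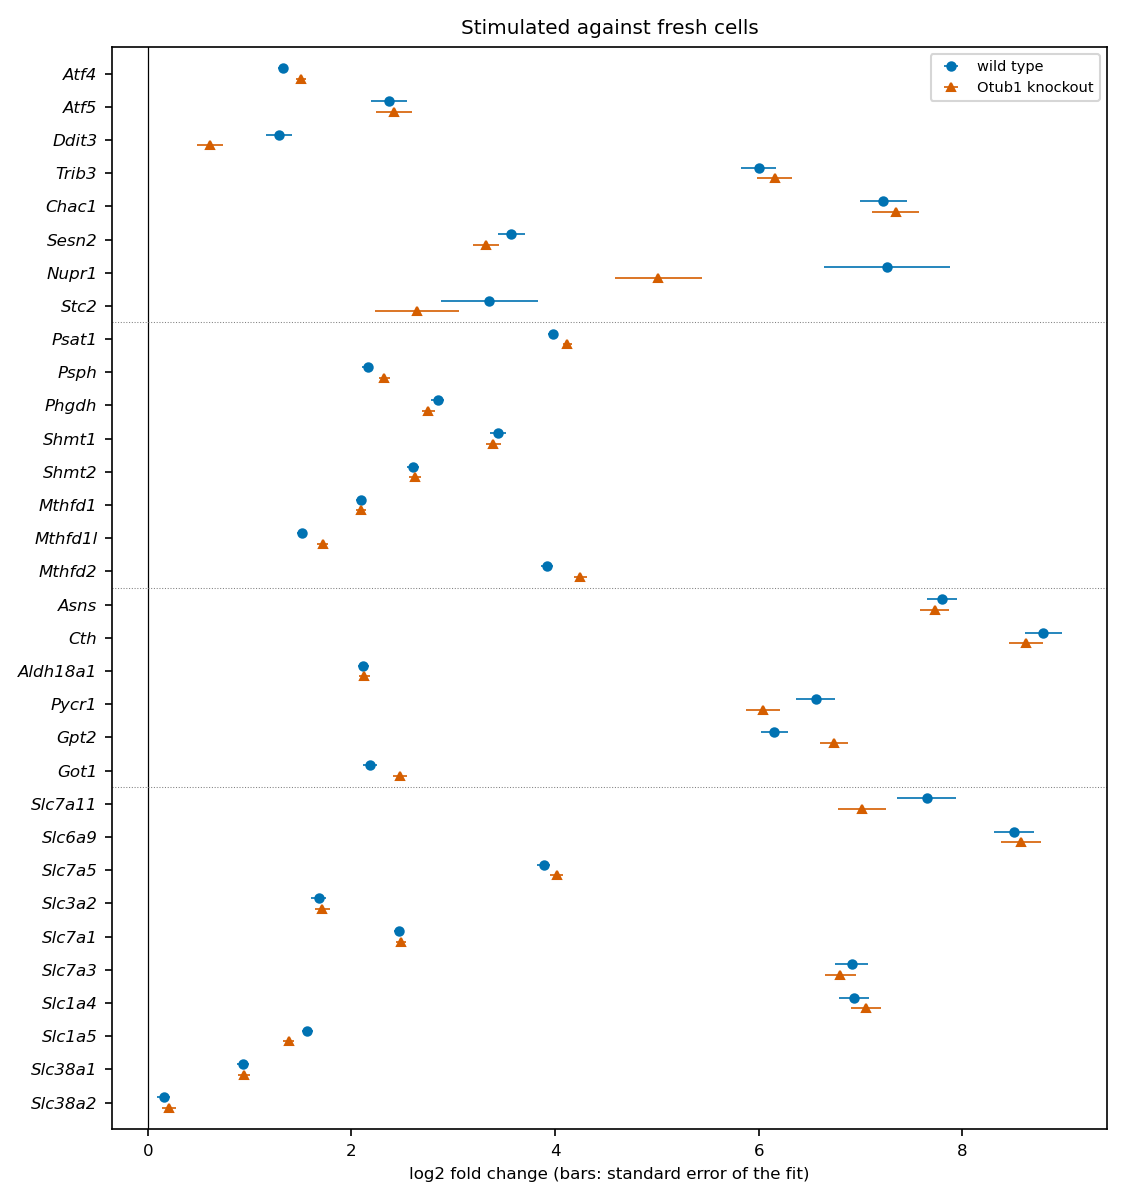
Log2 fold change of stimulated against fresh cells for the 32 genes tested, in wild type (circles) and Otub1 knockout (triangles); bars are the standard error of the fit and dotted lines separate the 4 roles. Values run from 0.16 for Slc38a2 to 8.80 for Cth in wild type, and the genotypes lie close together with the largest gap for Nupr1 and smaller ones for Stc2, Ddit3, Slc7a11, Gpt2 and Pycr1.

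Because levels between genes need an allowance for length, CPM were divided by the merged exon length of GENCODE M21 (GRCm38). Per kilobase, the highest mean in fresh wild type was that of Atf4, 90.7 CPM per kb, followed by Slc1a5 (68.8), Shmt2 (45.6), Phgdh (43.3) and Slc3a2 (41.0). In stimulated wild type Phgdh (312 CPM per kb), Shmt2 (278), Slc7a5 (277), Atf4 (228) and Slc1a5 (204) led. Shmt2 and Slc7a5 lay closer to each other than the spread of their replicates. Slc7a11 reached 1.47 CPM per kb, and the exon length used for it includes all annotated transcripts. Exons of Slc6a9 overlap those of Ccdc24 on the other strand over 27.8% of their length, and those of Psph a transcript of Cct6a over 10.4%. Ddit3 and Mars share 3.97% of the exons of Ddit3. Whether the counting used strand is not given in the sources used here, so reads there can be shared or lost. A second entry named Ddit3 overlaps 6.13% of the exons of Ddit3 on the same strand, where strand does not separate reads. Phgdh has an annotated pseudogene copy, which can take up reads as well.

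ATF4 with a C/EBP partner binds composite elements, so the promoters of the genes were searched for the letters of their core, TGATGNAA, on both strands. The window was the 250 bases before each RefSeq gene start (GRCm38.p6). A promoter was held for 28 of the 33 genes, not for Cth, Slc7a5, Slc7a3, Slc1a5 and Slc38a1. The letters occurred in 6 of these 28 (21.4%) and in 3.91% of the 27025 genes with a promoter in the same table. The stretches that hold them are printed to show their spelling and strand beside the stimulation values of their genes, 5′ to 3′ along the gene's strand, with the matching letters in capitals.
Chac1 (chr2:119351023-119351082, plus strand): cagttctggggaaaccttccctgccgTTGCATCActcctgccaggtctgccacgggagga
Slc7a11 (chr3:50443627-50443705, minus strand): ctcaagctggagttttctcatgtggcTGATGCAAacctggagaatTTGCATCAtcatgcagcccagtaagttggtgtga
Asns (chr6:7693214-7693243, minus strand): tcccagccacaTGATGAAActtcccgcacg
Nupr1 (chr7:126625562-126625591, minus strand): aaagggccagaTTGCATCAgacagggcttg
Pycr1 (chr11:120643818-120643877, minus strand): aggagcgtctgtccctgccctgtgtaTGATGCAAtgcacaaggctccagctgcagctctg
Got1 (chr19:43524674-43524733, minus strand): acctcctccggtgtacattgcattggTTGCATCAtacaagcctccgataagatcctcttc
Slc7a11 held the letters on each strand, starting 66 and 47 bases before the gene start, and in Asns they started 23 bases before it. Chac1, Nupr1 and Got1 carried them on the strand opposite to the gene, and Pycr1 and Asns on the gene's own. In wild type the log2 fold change upon stimulation was 7.22 for Chac1, 7.65 for Slc7a11, 7.80 for Asns, 7.26 for Nupr1, 6.56 for Pycr1 and 2.18 for Got1. Of these 6, 4 (Chac1, Slc7a11, Nupr1 and Pycr1) passed the filter on low counts through the stimulated groups alone, against 1 of the 21 tested genes with a promoter but no match, so the changes of both sets are not compared. The stretches of Asns and Nupr1 lie inside the gene as GENCODE M21 annotates it, which begins upstream of the RefSeq start, and the other 4 lie outside. A match describes letters, and no match says only that they are not in this window. Because the list was built around ATF4 and genes it acts on, the shares given above are no test of it.

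The second question was whether loss of Otub1 changed these genes in fresh cells. No gene of the list passed edgeR (adjusted p from 0.0889 to 0.993), and DESeq2 called 0 as well. Over all genes, 1.20% were called. At an unadjusted p under 0.05, 1 gene of the list was higher and 3 were lower, against 7.56% and 6.57% of all genes. The lowest adjusted p was that of Mthfd2, at 24.9, 26.8 and 23.7 CPM in wild type and 19.7, 21.3 and 23.0 in knockout, with each knockout library below each wild-type one (log2 fold change −0.24, SE 0.065, edgeR adjusted p = 0.0889). Got1 had the next lowest, −0.22 (SE 0.072, edgeR adjusted p = 0.171), with knockout libraries at 33.9, 30.3 and 28.2 CPM against 33.5, 36.9 and 37.2 in wild type, which overlap. Ddit3 stood at 12.8, 13.5 and 13.3 CPM in knockout, above 10.7, 10.6 and 10.1 in wild type (log2 fold change 0.33, SE 0.14, edgeR adjusted p = 0.274). Atf4 differed by −0.045 (SE 0.048), with means of 214 ± 4.85 and 207 ± 0.792 CPM. Its groups did not overlap, but only just, with 208.3 CPM in the lowest wild-type and 208.2 CPM in the highest knockout library. The groups did not overlap for 6 of the 32 genes, 2 higher and 4 lower, against 20.0% of all genes. Nupr1 and Slc7a11 had the largest estimates, 2.42 (SE 1.25) and 1.08 (SE 0.69), on 1 against 8 and 5 against 13 counts, and neither passed. The fresh groups of Slc7a11 did not overlap and those of Nupr1 did.

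**Figure D3:**
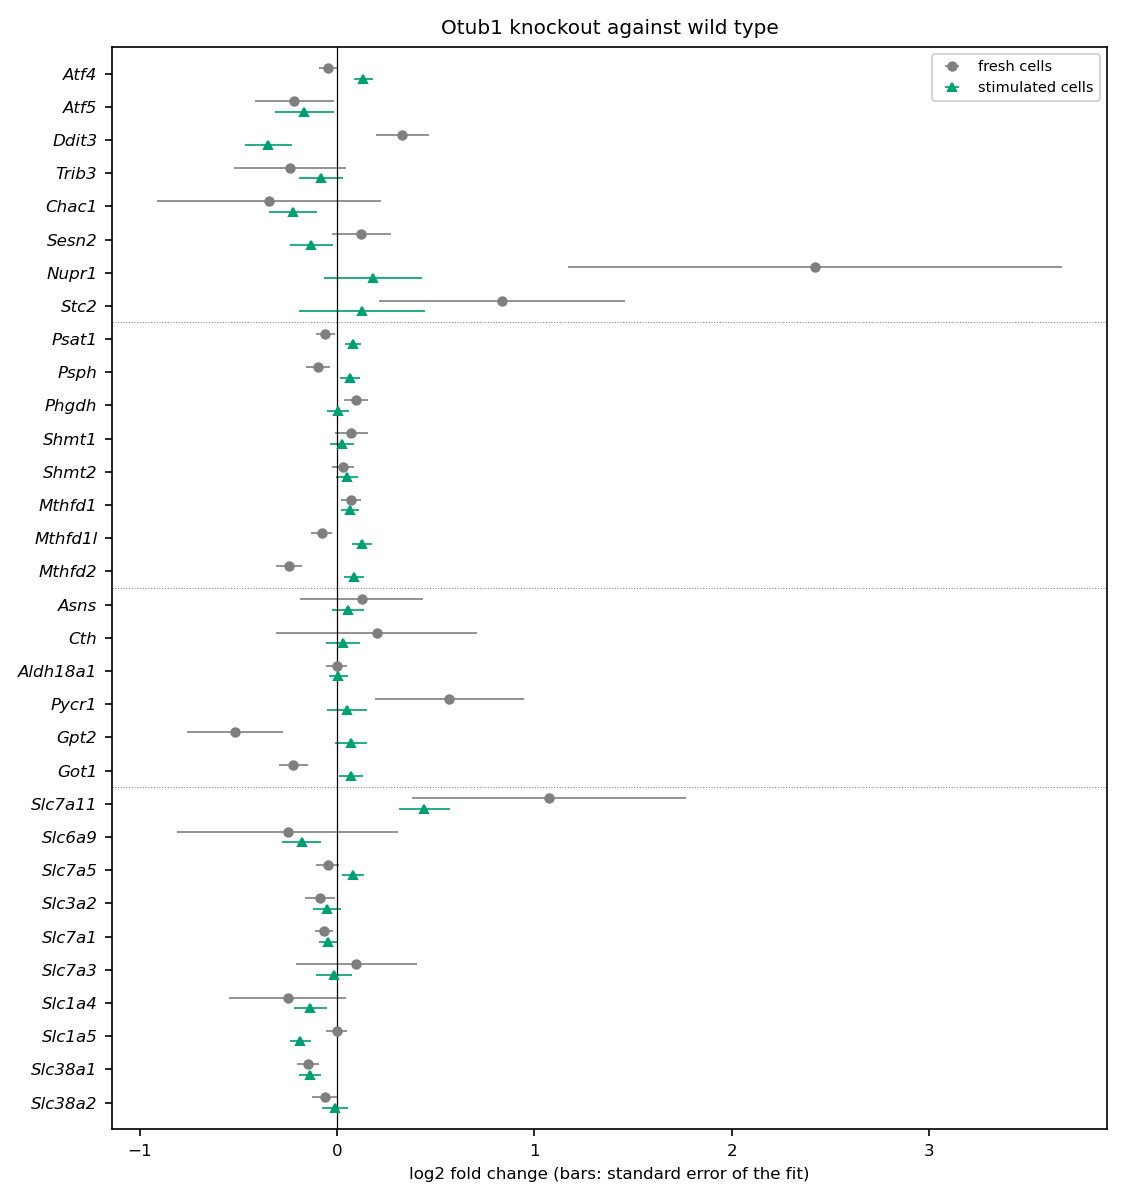
Log2 fold change of Otub1 knockout against wild type for the 32 genes tested, in fresh (circles) and stimulated cells (triangles); bars are the standard error of the fit and dotted lines separate the 4 roles. In stimulated cells Slc7a11 (0.44) and Slc1a5 (−0.19) were the called genes, and in fresh cells none was.

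In stimulated cells Slc7a11 rose and Slc1a5 fell in the knockout, and the other 30 genes tested did not pass. Both calls were near the threshold. Over all genes 5.08% rose and 4.22% fell, so that 1 of 32 in each direction is no larger a share than the background. Slc7a11 was at 24.2, 19.8 and 17.4 CPM in wild type and 25.9, 33.01 and 24.5 in knockout, means of 20.5 ± 3.44 and 27.8 ± 4.55 CPM. Each knockout library lay above each wild-type one, the lowest of them only just (log2 fold change 0.44, SE 0.13, edgeR adjusted p = 0.0442). Slc1a5 was at 804, 874 and 874 CPM in wild type and 763, 709.5 and 771 in knockout, each knockout library below each wild-type one (log2 fold change −0.19, SE 0.051, edgeR adjusted p = 0.0342). The summed CD8 T cell markers did not overlap between these groups either, at 1955 to 2080 CPM in wild type and 1594 to 1781 in knockout, and the part of this in the result was not tested. The dendritic cell markers summed to 77.7 to 87.0 and 95.7 to 101 CPM, a gap carried by Batf3 (16.7 ± 2.81 and 32.2 ± 6.79 CPM) and Zbtb46, whose means were higher in stimulated than in fresh libraries, while H2-Aa stood at 12.4 ± 1.03 and 10.7 ± 2.88 and Cst3 at 35.8 ± 2.31 and 33.8 ± 1.86 CPM. The call of Slc7a11 was lost when 1 of 4 stimulated libraries was left out, which were wild-type replicates 2 and 3 and knockout replicates 1 and 2 (in that order edgeR adjusted p = 0.133, 0.214, 0.0616 and 0.166) and in a fit of the 6 stimulated libraries alone (0.0911). That of Slc1a5 was lost without the same libraries (0.123, 0.151, 0.0642 and 0.12), in the fit of 6 (0.0711) and when the libraries holding Y-linked reads were left out (0.0548). In the fit of 6 and without the Y-linked libraries the log2 fold change of Slc1a5 was −0.19 and −0.21, no smaller than with all libraries. That of Slc7a11 was 0.44 in the fit of 6. With single libraries left out, in the order above, the estimates of Slc7a11 were 0.42, 0.335, 0.49 and 0.305. Those of Slc1a5 were −0.165, −0.166, −0.2 and −0.148, so that some estimates shrank.

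The genes that were not called lay close to 0 for the most part. Atf4 was at 505, 553 and 554 CPM in stimulated wild type and 563, 614 and 592 in stimulated knockout, with each knockout library above each wild-type one and a log2 fold change of 0.13 (SE 0.047, edgeR adjusted p = 0.0955). Ddit3, with an estimate of the opposite sign, was at 20.5, 27.4 and 28.9 CPM in wild type and 17.8, 23.8 and 19.0 in knockout, with overlap between the groups and a log2 fold change of −0.35 (SE 0.12, edgeR adjusted p = 0.0903). Estimates were above 0 for 48.7% of all genes. In the list they were above 0 for 3 of 8 genes of the ATF4 pathway, 8 of 8 serine and folate enzymes, 6 of 6 genes of amino acid synthesis and 2 of 10 carriers. The medians in that order were −0.11, 0.067, 0.053 and −0.048, against −0.0048 over all genes, where the median size of a change was 0.12. Under some alternatives the estimates of Phgdh, Shmt1, Asns, Cth, Aldh18a1, Pycr1 and Gpt2 were below 0, at the lowest −0.077 for Cth. Those of the other serine, folate and synthesis genes tested stayed above 0. Most genes of these roles were lowest in stimulated wild-type replicate 1, described below. The serine and folate enzymes kept to a narrow band, from 0.0037 for Phgdh to 0.13 for Mthfd1l, and Phgdh was at 775 ± 50.1 and 777 ± 20.9 CPM. Groups did not overlap for 6 of the 32, against 27.4% of all genes.

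A library stood apart among the stimulated wild-type ones. Replicate 1 had the lowest level of the 3 for 28 of the 32 genes tested and the highest for 2. Over all genes it was the lowest for 36.3% and the highest for 40.1%. It was the lowest for 8 of 8 in the ATF4 pathway, 7 of 8 serine and folate enzymes, 5 of 6 genes of amino acid synthesis and 8 of 10 carriers. Trib3 was at 86.1, 127 and 119 CPM in the wild-type libraries, Chac1 at 35.8, 50.1 and 45.6 and Sesn2 at 69.9, 95.8 and 94.4, and in each the first library was well under the others. Slc7a11 was an exception, highest in replicate 1. In the stimulated knockout, replicate 1 was the lowest for 16 genes, 7 of them in the ATF4 pathway, and for 29.2% of all genes. Stimulated wild-type replicate 2 was the highest of its group for 23 genes of the list and for 28.6% of all genes. Without stimulated wild-type replicate 1, Ddit3 fell in the knockout (log2 fold change −0.48, edgeR adjusted p = 0.0125), as it did without knockout replicate 2 (−0.48, edgeR adjusted p = 0.0276), with a range over the alternatives from 0.0125 to 0.349. Without wild-type replicate 1 the estimates were −0.35 for Chac1, −0.34 for Atf5, −0.26 for Sesn2 and −0.23 for Trib3, with edgeR adjusted p of 0.0708, 0.115, 0.0709 and 0.0724, so none of these passed. Other genes of the pathway did not go the same way. The estimate of Atf4 stayed at 0.09 or more and that of Nupr1 at 0.00835 or more over the alternatives, and that of Stc2 ranged from −0.098 to 0.298. What sets replicate 1 apart was not tested.

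**Figure D4:**
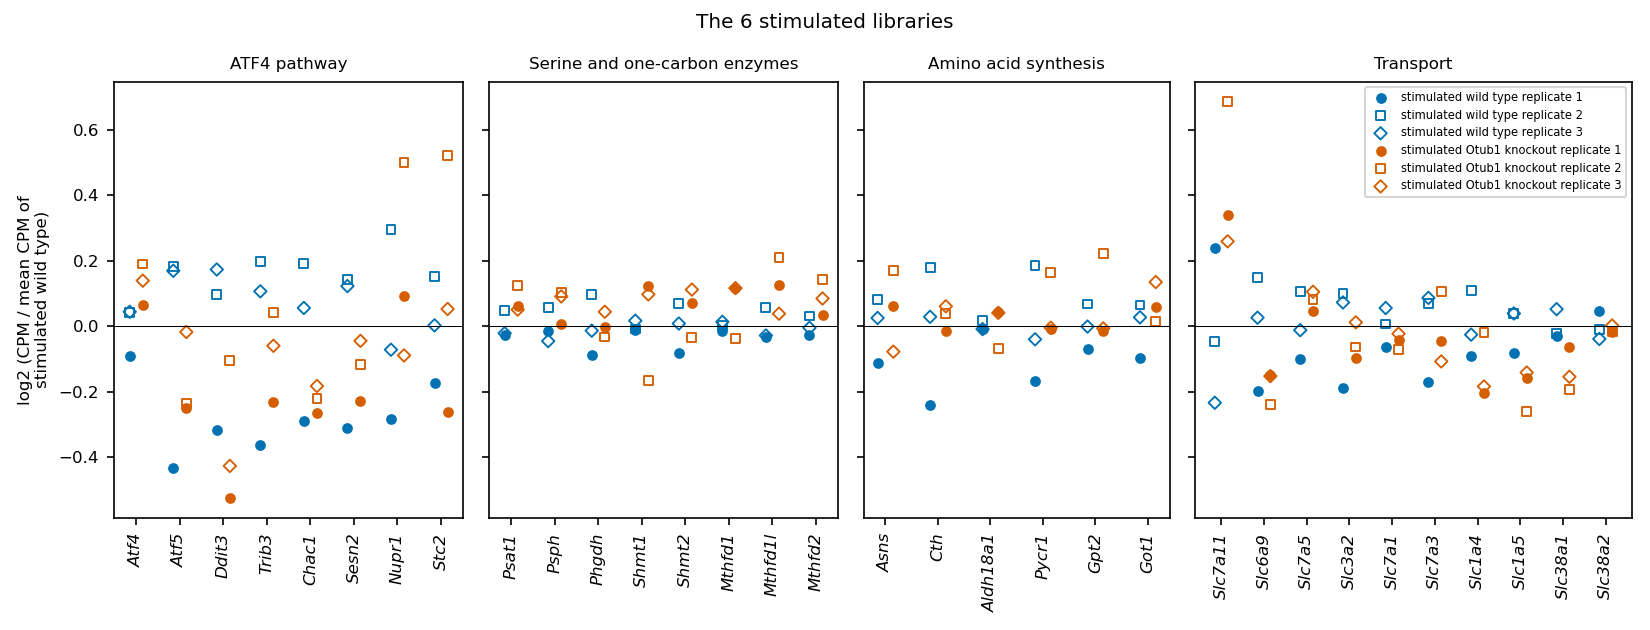
Level of each gene tested in the 6 stimulated libraries, as log2 of CPM over the mean of stimulated wild type, by role; filled circles are replicate 1, open squares replicate 2 and open diamonds replicate 3, blue for wild type and orange for Otub1 knockout. The filled blue circle is the lowest wild-type point for 28 of 32 genes.

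Whether the response to stimulation differed between genotypes was tested with an interaction term. None of the 32 genes passed edgeR, against 2.26% of all genes, with 6 above and 2 below 0 at an unadjusted p under 0.05, against 7.60% and 8.75% of all genes. The smallest adjusted p belonged to Mthfd2, whose rise was larger in knockout by 0.33 (SE 0.083, edgeR adjusted p = 0.0509) on the log2 scale, and to Ddit3, whose rise was smaller by an interaction of −0.68 (SE 0.18, edgeR adjusted p = 0.0647). DESeq2 called both (adjusted p = 0.0172 and 0.017), as did edgeR without the filter on low counts (0.036 and 0.0251). Without fresh knockout replicate 3 or stimulated knockout replicate 1, Mthfd2 passed edgeR (0.0402 and 0.0482), and its range over the alternatives was 0.0172 to 0.17. Ddit3 passed without stimulated wild-type replicate 1 or stimulated knockout replicate 2 (0.0147 and 0.0273), with a range of 0.0147 to 0.273. The responses of wild type and knockout differed by a median of 0.13 on the log2 scale over the 32 genes, against 0.14 over all genes. The largest gap, 2.24, was that of Nupr1, which rests on 1 and 8 counts in the fresh groups.

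The neighbouring genes of the pathway were taken from 6 further lists, with 128 genes in the files. Of 119 that passed the filter, 76 rose and 28 fell with stimulation in wild type, against 40.8% and 41.4% of all genes. The shared rise thus did not extend to all of them. The median log2 fold change over all genes tested was −0.027. The counts of each list below stand against the same shares of all genes. Of the kinases and phosphatases of eIF2, their regulators and its exchange factor, 8 rose and 3 fell of 14 tested, with a median log2 fold change of 0.32. Ppp1r15a, or GADD34, the stress-induced phosphatase subunit that reverses eIF2 phosphorylation, fell from 433 ± 47.4 to 50.5 ± 10.0 CPM with a log2 fold change of −3.10 (SE 0.12, edgeR adjusted p = 8.58e-13). Eif2s1, the phosphorylated subunit of eIF2, rose from 98.9 ± 5.56 to 305 ± 7.64 CPM, and subunits of its exchange factor rose with it, Eif2b3 from 15.3 ± 1.18 to 60.6 ± 2.94 and Eif2b1 from 30.5 ± 1.51 to 79.3 ± 5.39 CPM. Of ATF4 partners and further targets, among them the transfer RNA synthetases, 22 rose and 3 fell of 26 tested, with a median of 2.26. Gars, the glycine synthetase, went from 115 ± 2.25 to 663 ± 22.4 CPM and Eif4ebp1, a brake on cap-dependent translation, from 5.83 ± 0.571 to 156 ± 16.6 CPM. Vldlr, a lipoprotein receptor, went from 0.0827 ± 0.104 to 5.47 ± 1.48 CPM, and Ero1l, an oxidase of the endoplasmic reticulum, from 61.2 ± 3.06 to 256 ± 26.7 CPM. The edgeR adjusted p of the genes named from these 6 lists, for stimulation in wild type, was at most 0.000626. Of these genes, Vldlr, Slc1a1 and Gls2 held only 4, 7 and 11 counts in fresh wild type. The further lists were not screened for genes that passed the filter through the stimulated groups alone, whose rise the filter would fix.

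Of genes in the other arms of the unfolded protein response, 10 rose and 2 fell of 15 tested, with a median of 0.47. Xbp1, the factor of the IRE1 arm, rose from 32.8 ± 0.736 to 128 ± 12.3 CPM, and the chaperone partner Sdf2l1 from 11.9 ± 0.936 to 44.1 ± 1.46 CPM, while Dnajb9, a target of that arm, fell from 101 ± 16.2 to 17.1 ± 0.591 CPM. Of the folate cycle, 16 rose and 4 fell of 24 tested. Aldh1l2, a mitochondrial formyl-folate dehydrogenase, went from 0.758 ± 0.259 to 49.1 ± 6.20 CPM and the folate carrier Slc19a1 from 25.6 ± 1.79 to 159.9 ± 3.94 CPM, whereas Aldh1l1, the cytosolic relative of Aldh1l2, fell from 2.79 ± 0.368 to 1.03 ± 0.142 CPM. Of enzymes for glutamine, glutamate, proline and branched-chain amino acids, 11 rose and 7 fell of 19 tested, and Glul, which makes glutamine, fell from 99.0 ± 1.41 to 51.2 ± 3.28 CPM. Of other amino acid transporters and sensors, 9 rose and 9 fell of 21 tested, near the shares of all genes (40.8% and 41.4%). Their median was 0.12. Here Sesn1 and Sesn3, relatives of Sesn2, fell from 101 ± 1.89 to 28.1 ± 3.86 and from 87.2 ± 1.76 to 56.5 ± 1.10 CPM, opposite to Sesn2.

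**Figure D5:**
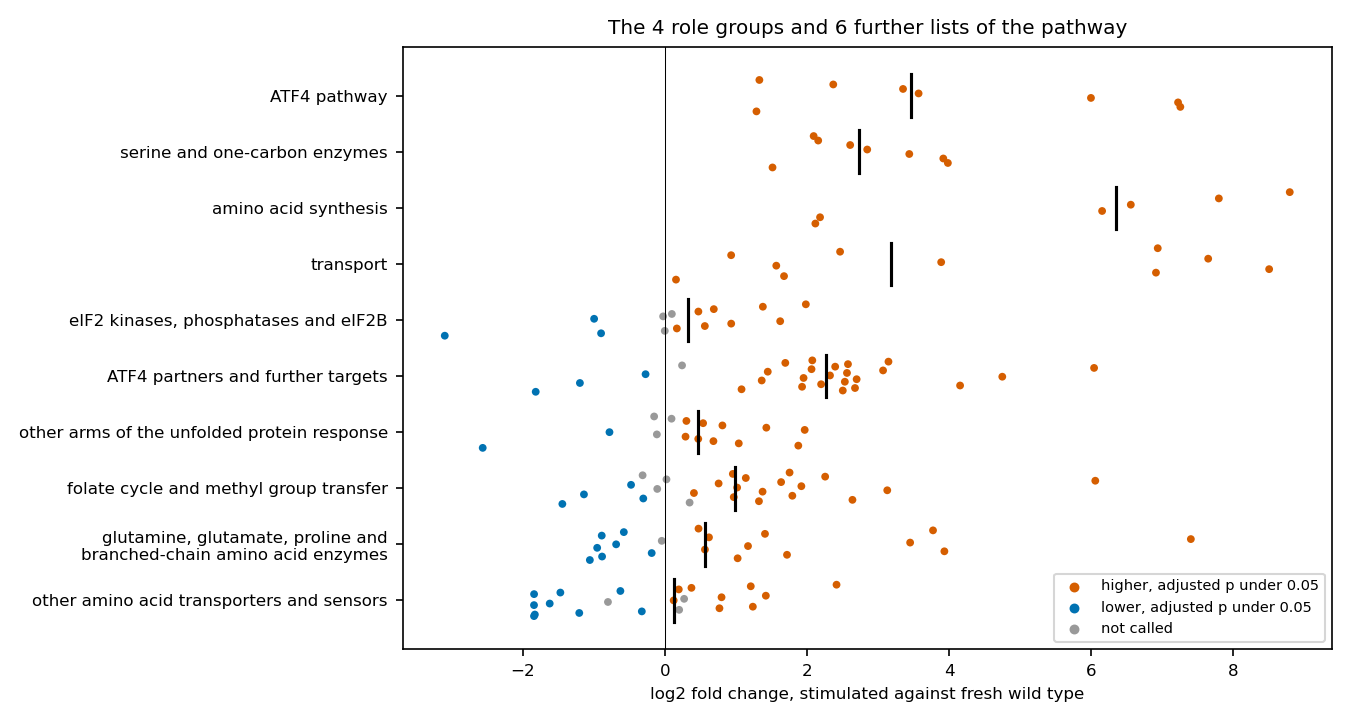
Log2 fold change of stimulated against fresh wild type for each tested gene of the 4 role groups (top) and of 6 further lists of the pathway. Each point is a gene, coloured by the edgeR call, and black bars are medians of the genes tested. Those of the role groups include the 6 genes that passed the filter through the stimulated groups alone. The further lists were not screened for such genes. Every point of the 4 role groups lies above 0, while each of the 6 further lists holds genes that fell.

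In stimulated knockout against wild type, 9 of these 119 neighbouring genes rose and 3 fell, near the background of 5.08% and 4.22%. In fresh cells edgeR called 0 of them, with 6 higher and 10 lower at an unadjusted p under 0.05, against 7.56% and 6.57% of all genes. Of the 19 enzymes for glutamine, glutamate, proline and branched-chain amino acids, 4 rose. Gls2, a glutaminase, went from 3.31 ± 0.213 to 8.71 ± 0.362 CPM with a log2 fold change of 1.39 (SE 0.20, edgeR adjusted p = 0.000624), Oat, which links ornithine to proline and glutamate, from 89.6 ± 2.45 to 106 ± 4.86 CPM, Glul from 51.2 ± 3.28 to 59.9 ± 1.22 CPM and Gcat, a mitochondrial enzyme of threonine breakdown, from 13.6 ± 2.10 to 19.2 ± 2.41 CPM (edgeR adjusted p = 0.00704, 0.0113 and 0.0196). Gls2 and Oat passed under each alternative run (edgeR or DESeq2 adjusted p of up to 0.00568 and 0.0379). Glul did not pass in 2 and Gcat in 4 of 11 alternatives. Among carriers and sensors, Sesn1 fell from 28.1 ± 3.86 to 21.8 ± 0.829 CPM and Sesn3 from 56.5 ± 1.10 to 49.3 ± 1.19 CPM, and the taurine carrier Slc6a6 rose from 207 ± 12.4 to 247 ± 7.97 CPM (edgeR adjusted p = 0.0102, 0.0462 and 0.0125). Slc1a1, a glutamate carrier, was at 0.740 ± 0.144 and 0.481 ± 0.180 CPM, and the difference did not pass.

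In the folate list Aldh1l1 fell from 1.03 ± 0.142 to 0.451 ± 0.115 CPM (edgeR adjusted p = 0.0306), with the call lost in 6 of 11 alternatives. Ero1l rose from 256 ± 26.7 to 416 ± 147 CPM, at 259.5, 280.3 and 227 CPM in wild type and 323, 585 and 341 in knockout, and Gars from 663 ± 22.4 to 729 ± 14.5 CPM (edgeR adjusted p = 0.0129 and 0.0463), with calls lost in 2 and 9 alternatives. The log2 fold change of Ero1l, 0.70, ranged from 0.38 to 0.86 over the alternatives, lowest without stimulated knockout replicate 2, which held the highest level. Manf, a secreted factor of the endoplasmic reticulum, rose from 84.4 ± 3.28 to 99.8 ± 4.19 CPM (edgeR adjusted p = 0.011) and kept the call in each alternative. The calls of Sesn3 and Slc6a6 were lost in 9 and 3 alternatives, and that of Sesn1 in none. Among the alternatives, leaving out stimulated wild-type replicate 3 ended the calls of Ero1l, Gars, Aldh1l1, Gcat, Glul, Slc6a6 and Sesn3. The interaction called 0 of the 119 by edgeR, with 12 above and 5 below 0 at an unadjusted p under 0.05, against 7.60% and 8.75% of all genes.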

How the data were processed

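RNA of 12 mouse T cell libraries was sequenced by the authors. The submitters' processing notes name the build mm10 and the tools TopHat, TopHat2, HTSeq and DESeq2, with versions, annotation and strand setting not given in the sources used here. The deposited files hold raw HTSeq counts per gene, 1 file per library. Summary lines that name no gene held 5.22 to 6.43% of a library's reads and were left out. Genes that passed filterByExpr (12759 of 23420) were fitted with edgeR 4.0.16 in R 4.3.3, with TMM factors (0.988 to 1.01), 1 coefficient for each of the 4 groups, all 12 libraries and 8 residual degrees of freedom. The two-sided quasi-likelihood test was Benjamini-Hochberg adjusted over all genes tested and called under 0.05. Standard errors are the absolute log2 fold change over the square root of F. Replicates differed beyond sampling noise, with chi-square over degrees of freedom of 4.38 to 19.3 in 12 pairs, so all were counted. The steps were tested on simulated data. DESeq2 1.42.0, RLE scaling, no filter, the 6 libraries compared, libraries without Y-linked reads and leaving out each library were alternatives. At the depths given, counting error is small except for genes with few counts; intervals cover counting error only. The 33 genes and all lists were chosen with earlier results of these data known. Values in every library are given for Atf4, for genes called in a knockout contrast or the interaction, and for the 2 highest and 2 lowest stimulation changes of each role in wild type. Of each further list at most 4 genes are named, first those called in stimulated knockout by size of change, then by stimulation in wild type; 1 such gene is not reported here.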

Additional observations from a re-analysis of the deposited data

How the results depend on the processing

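Of 1914 values of single genes of the list under the alternatives, 1890 kept their side of the threshold (among them 102 that were not called and changed sign), 14 lost the call, 10 gained one and 0 called values reversed. Counts of genes that rose with stimulation stayed within 1.5 times of those given under each alternative run, in both genotypes. RLE scaling moved the median change of all genes by at most 0.0132 on the log2 scale. In stimulated knockout against wild type, the 1 higher gene of the list became 0 with only the 6 libraries compared, and 0 to 1 when each library was left out. The 1 lower gene became 0 in that fit and 0 once the libraries holding Y-linked reads were dropped, and 0 to 2 when each was left out. For the interaction, 0 higher and 0 lower genes of the list became 1 and 1 without the filter on low counts and 1 and 1 with DESeq2, and 0 to 1 and 0 to 1 when each library was left out. Over all genes, the 125 higher and 28 lower in fresh knockout became 202 and 43 without the filter, 223 and 103 with DESeq2, 53 higher with those libraries dropped, and 21 to 170 and 8 to 76 when each was left out. In stimulated knockout the 648 higher and 539 lower became 358 lower with the 6 libraries compared and 359 lower with those libraries dropped, and 258 to 796 and 256 to 511 when each was left out, both lowest without stimulated wild-type replicate 3. The 89 higher and 199 lower interactions became 151 higher without the filter, 192 and 350 with DESeq2, 55 and 67 with those libraries dropped, and 32 to 153 and 99 to 252 when each was left out. A count over all genes moved by over 1.5 times without fresh wild-type replicate 2 or 3 or any 1 fresh knockout library in fresh knockout against wild type, without stimulated wild-type replicate 2 or 3 in stimulated knockout, and without fresh wild-type replicate 2 or 3, fresh knockout replicate 1 or 3 or stimulated wild-type replicate 1 or 3 in the interaction. The cause of these changes was not tested. No paired analysis was possible because the labels give the libraries no shared replicate numbers. Depth limits the fresh levels, and so the stimulation changes, of Nupr1, Slc7a11, Cbs, Slc6a9, Chac1, Pycr1, Cth, Stc2 and Slc1a4. These rest on 1 to 42 counts summed over a fresh group.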
